A study of Rattus norvegicus with 28 samples.

Results

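Rat hepatocytes exposed to 1 nM TCDD were compared with hepatocytes of the same animals exposed to 10 nM TCDF, gene by gene. The members are the 4 arrays labelled TCDD 1 nM and the 4 arrays labelled TCDF 10 nM, which are 8 of the 28 arrays of the series, and 34849 gene names were measured on them. Each array holds a log2 ratio of treated RNA over DMSO RNA, the pair of dye orientations of an animal was averaged, and the value reported is the TCDD ratio minus the TCDF ratio (n = 2 animals in each group). A difference of 1 is a 2-fold difference, and a positive difference means that the ratio was higher with TCDD.

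The cells were primary hepatocytes from adult female rats of the Sprague-Dawley strain (2 animals, called rat A and rat B), kept on Matrigel for 48 h in medium with insulin, transferrin, selenium (ITS+) and 0.1 uM dexamethasone. They then received TCDD, TCDF or PeCDF in 0.1% DMSO, DMSO alone, or neither for 24 h, and the RNA of 3 dishes was pooled for each animal and treatment. Every test RNA was hybridised in 2 orientations against DMSO RNA of the same animal, once labelled red with Alexa647 and once labelled green with Alexa555. The groups used here are untreated cells, TCDD at 0.01 and 1 nM, TCDF at 0.1 and 10 nM, and PeCDF at 2 nM, with 4 arrays in each. A further group, PeCDF at 0.02 nM (4 arrays), entered the probe filter and the estimate of the spread shared by all groups. Its ratios are not reported here. All of them, the DMSO controls included, carry the dexamethasone and the ITS+ supplement. Whether all arrays of an animal drew on one DMSO preparation is not given in the labels.

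TCDD is a tetrachlorinated dibenzo-p-dioxin and TCDF is its dibenzofuran counterpart, in which a direct carbon bond replaces an oxygen bridge between the rings. Both are agonists of the aryl hydrocarbon receptor (AHR), a ligand-activated transcription factor that dimerises with ARNT, binds DNA at a short core motif and induces drug-metabolising genes such as Cyp1a1, Cyp1a2 and Cyp1b1. In liver, AHR activation is also known for lowering genes of glucose and lipid metabolism. The TCDF dose was 10 times the TCDD dose, so every difference below is between exposures and not between compounds at a matched dose.

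Compound and scan session coincided. By the dates in the file headers, the arrays were read by the image software on 4 days, grouped here into 2 sessions of 2 days. The arrays of untreated and TCDD-treated cells fell in one session and those of TCDF and PeCDF in the other. The effect of the compound and a shift of the session therefore cannot be told apart in this comparison. Within a session, arrays with treated RNA in red were read on one day and those in green on the other, so orientation and day cannot be told apart either. The difference between the lower doses, TCDD 0.01 nM minus TCDF 0.1 nM, spans the same pair of sessions and is given for the called genes and for those others whose values are given array by array. The dose step difference, which is the rise from the lower to the upper dose of TCDD minus that of TCDF, removes a shift that adds equally to all arrays of a session. Rat B also stood apart from rat A with TCDD. The spread was taken as the median absolute deviation of the log2 ratio over the brightest 20% of all 41012 probes. It was 0.276 and 0.298 on the TCDD 1 nM arrays of rat B. It was 0.201 and 0.21 on those of rat A and 0.162 to 0.183 on the TCDF 10 nM arrays.

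The promoters of 3 genes that carry much of the comparison are shown as examples, chosen after the values were seen: a pair of genes with large differences towards TCDD, and one gene called lower. The choice sets which of them hold the motif, so no contrast is drawn from it. They come from RefSeq (build GRCr8) and run from 250 bases before to 50 bases after the start of the transcript, 5' to 3' on the strand of the gene. Capitals mark GCGTG or its reverse complement CACGC. Cyp1b1 (chr6:21094315-21094614, plus strand) encodes a cytochrome P450 of oestrogen and polycyclic hydrocarbon metabolism. Areg (chr14:17265592-17265891, minus strand) encodes amphiregulin, a ligand of the EGF receptor. Pfkfb1 (chrX:22941926-22942225, plus strand) encodes a liver enzyme that both forms and breaks down the bisphosphate signal governing glycolysis.
Cyp1b1: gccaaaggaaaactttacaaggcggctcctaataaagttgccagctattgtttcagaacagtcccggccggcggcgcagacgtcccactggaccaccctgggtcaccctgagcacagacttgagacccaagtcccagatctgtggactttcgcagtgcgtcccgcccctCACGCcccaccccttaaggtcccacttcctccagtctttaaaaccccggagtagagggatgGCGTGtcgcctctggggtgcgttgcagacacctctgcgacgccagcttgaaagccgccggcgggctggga
Areg: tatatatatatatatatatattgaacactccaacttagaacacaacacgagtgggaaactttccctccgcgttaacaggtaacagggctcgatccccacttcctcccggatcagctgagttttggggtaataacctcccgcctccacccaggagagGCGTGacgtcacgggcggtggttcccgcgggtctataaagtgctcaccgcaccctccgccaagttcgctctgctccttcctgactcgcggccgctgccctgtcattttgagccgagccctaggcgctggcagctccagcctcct
Pfkfb1: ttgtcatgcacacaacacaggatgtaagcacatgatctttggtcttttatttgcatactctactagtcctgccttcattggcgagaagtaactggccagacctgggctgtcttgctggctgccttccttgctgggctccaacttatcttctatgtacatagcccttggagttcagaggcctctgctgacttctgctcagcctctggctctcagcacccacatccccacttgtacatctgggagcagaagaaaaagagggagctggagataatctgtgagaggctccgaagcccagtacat
In Cyp1b1 the motif stood on both strands, its first base 81 and 20 bases before the start, and in Areg it stood 94 bases before the start. The window of Pfkfb1 held none. Of all 33469 promoters listed, 9939 (29.7%) held the motif on either strand, and of the 10 AHR battery genes with an entry 7 held it, while Cyp1a2, Nfe2l2 and Cyp2s1 did not. These are matches of letters and not measured binding sites.

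**Figure D1:**
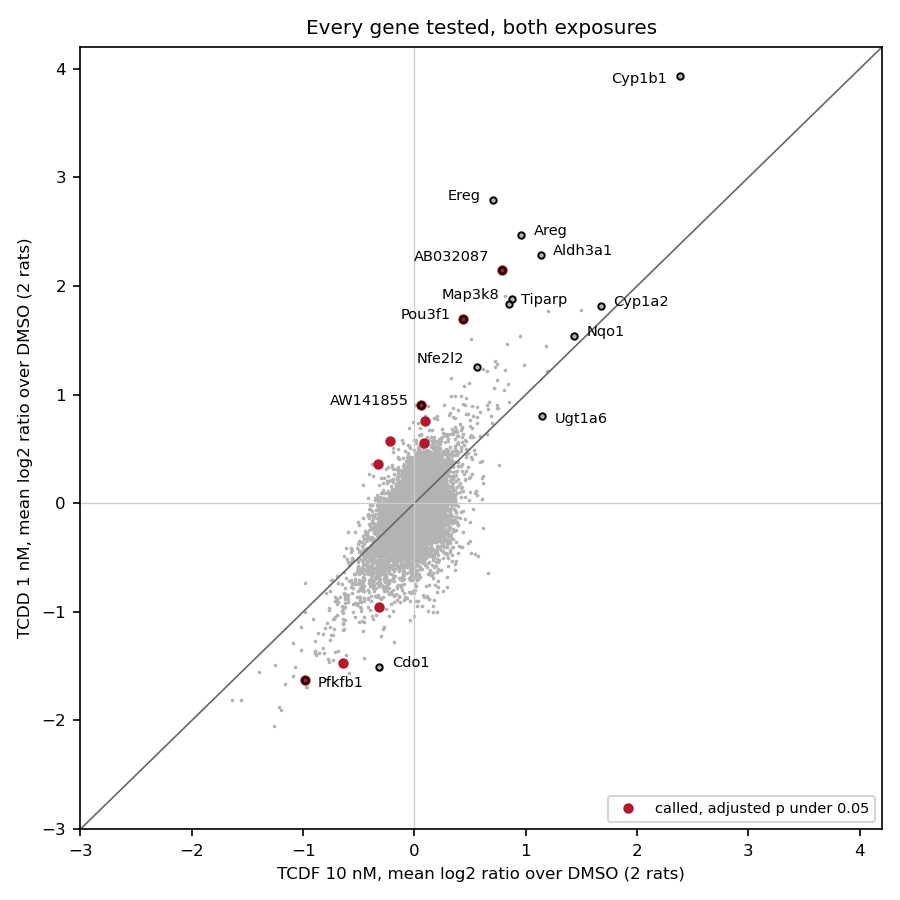
Mean log2 ratio over DMSO of every gene with TCDD 1 nM (vertical axis) against TCDF 10 nM (horizontal axis), each the mean of 2 rats; the diagonal marks equal ratios. Red points are the 10 genes called in the difference, and the genes named farthest above the diagonal are Ereg, Cyp1b1 and Areg.

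Few genes passed the test of the difference, although both exposures moved many genes against DMSO. Against DMSO, limma called 3730 genes with TCDD 1 nM (10.7% of those tested; 1653 higher, 4.74%, and 2077 lower, 5.96%). With TCDF 10 nM it called 1039 (2.98%; 359 higher, 1.03%, and 680 lower, 1.95%). These 2 comparisons use separate test RNA but DMSO RNA of the same animals. In the difference itself 10 of 34839 genes were called (0.0287%), 7 higher (0.0201%) and 3 lower (0.00861%) with TCDD. At an unadjusted p under 0.05 there were 4100.

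All 10 called genes had 4 TCDD arrays wholly above or wholly below the 4 TCDF arrays. That was also true of 1819 genes above (5.24% of the 34695 with a value on all 8 arrays) and 2039 genes below (5.88%), so an absence of overlap was common. In size, 46 genes had a difference past 1.5-fold towards TCDD and 258 past it away from TCDD, and 9 and 18 genes were past 2-fold. With the animal as a block in the fit 19 genes were called, 15 higher and 4 lower.

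The count of calls changed with the animals and groups in the fit. Without rat B in both groups 3 genes were called, without rat A 670 (62 higher, 608 lower), without rat B of the TCDD group alone 4, and without rat A of the TCDD group alone 1589. A fit of the 8 arrays' animal values without the other groups called 0 by limma, with 2755 at an unadjusted p under 0.05.

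**Figure D2:**
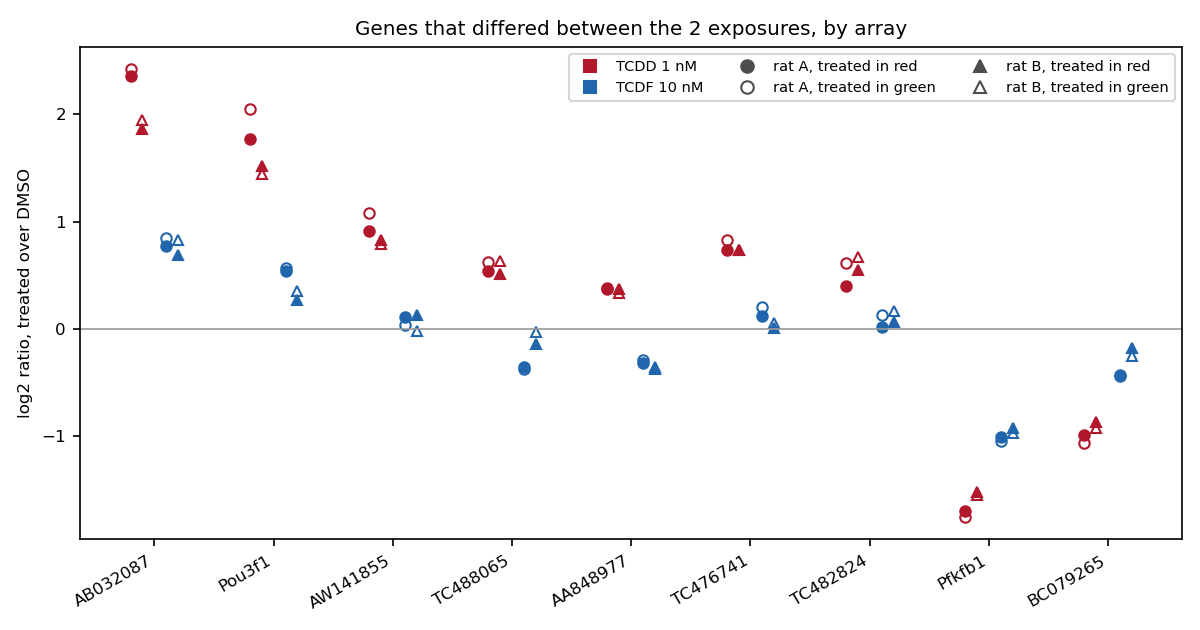
Log2 ratio of treated over DMSO RNA on each of the 8 arrays for 9 of the called genes; red is TCDD 1 nM, blue TCDF 10 nM, circles rat A, triangles rat B, filled with treated RNA in red and open in green. In each gene the 4 TCDD arrays lie wholly on one side of the 4 TCDF arrays; AA848977 and TC488065 lie on opposite sides of 0 in the 2 groups.

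Among the genes called higher, AB032087, Pou3f1 and AW141855 had the largest differences. Array values are given throughout in the order rat A with treated RNA in red, rat A in green, rat B in red and rat B in green. Pou3f1 encodes a POU-domain transcription factor known from neural and Schwann cells. Its log2 ratios were 1.77, 2.05, 1.52 and 1.44 with TCDD and 0.54, 0.57, 0.27 and 0.35 with TCDF. Every array of either group was above 0, and the lowest TCDD array stood well above the highest TCDF array. The difference was 1.26 +/- 0.12 (standard error; 95% confidence interval 0.99 to 1.53), with an adjusted p of 0.0113. At the lower doses the difference was 0.12, and the dose step difference of 1.13 did not pass (adjusted p = 0.0835). Across the alternative settings the upper dose difference of Pou3f1 ran from 0.5 to 1.76. The probe is dim, with a DMSO signal above local background of 21 to 47 on the TCDD and 17 to 32 on the TCDF arrays. No fold is therefore given.

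AB032087, which the files describe as a fragment of an mRNA named RM1, had the largest called difference. It measured 2.36, 2.42, 1.86 and 1.95 with TCDD and 0.77, 0.85, 0.69 and 0.83 with TCDF. The response to both exposures was present in both rats, and rat A responded more than rat B to TCDD. The difference was 1.36 +/- 0.17, or 2.57-fold (adjusted p = 0.045), against 0.05 at the lower doses.

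AW141855 is an expressed sequence tag that the files liken to a cytochrome P450, and its ratio stood near 0 with TCDF and PeCDF. It measured 0.91, 1.08, 0.83 and 0.79 with TCDD, and 0.11, 0.04, 0.13 and -0.02 with TCDF. On the PeCDF 2 nM arrays it measured 0.01, 0.03, 0.04 and -0.01, and on untreated arrays 0.11, 0.14, 0.02 and 0.02. The difference was 0.84 +/- 0.06 (adjusted p = 0.00367). The lower doses differed by -0.05, and the dose step difference of 0.89 passed (adjusted p = 0.0334). The probe is dim: the test channel was well above background on 4 TCDD and 3 TCDF arrays, and the DMSO channel on 2 and 1. The size of its ratio therefore depends on the background step, and no fold is given. The difference was 0.21 without background correction and 1.89 with Agilent's log ratio. The filter's rule of 4 test channels well above background was met on the TCDD 1 nM arrays and not on the TCDF 10 nM arrays. AW141855 thus met that rule through a group where it was high, and its p-values are read with that limit.

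Pfkfb1, introduced above with its promoter, was called lower with TCDD and had a tight spread. It measured -1.70, -1.75, -1.52 and -1.55 with TCDD and -1.01, -1.05, -0.92 and -0.97 with TCDF, so both exposures lowered it in each rat and in each orientation. The difference was -0.64 +/- 0.06 (-0.79 to -0.50), 1.56-fold, with an adjusted p of 0.0131. At the lower doses it differed by 0.03, and its dose step difference of -0.67 passed (adjusted p = 0.0431).

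Another 5 called genes have no symbol in the tables used. BC079265, a cDNA clone, measured -0.99, -1.06, -0.87 and -0.92 with TCDD and -0.43, -0.44, -0.18 and -0.25 with TCDF (difference -0.64 +/- 0.08, adjusted p = 0.049; with the animal as a block it was not called). TC482824, an assembled transcript with no description, measured 0.40, 0.61, 0.55 and 0.67 with TCDD and 0.02, 0.13, 0.06 and 0.17 with TCDF (0.46 +/- 0.06, adjusted p = 0.045). TC476741 measured 0.74, 0.83, 0.74 and 0.74 with TCDD and 0.12, 0.20, 0.01 and 0.05 with TCDF (0.67 +/- 0.08, adjusted p = 0.045). AA848977 and TC488065, taken up next, were the called genes whose ratios had opposite signs in the 2 groups.

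**Figure D3:**
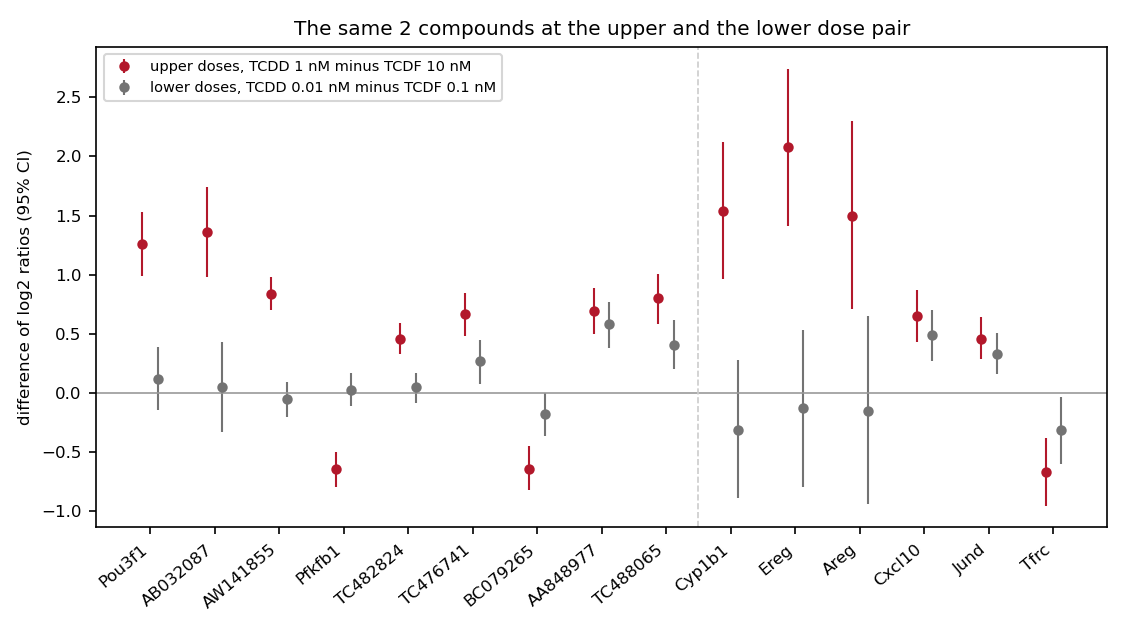
Difference of log2 ratios, TCDD minus TCDF, with its 95% confidence interval, at the upper doses (red, 1 against 10 nM) and at the lower doses (grey, 0.01 against 0.1 nM), for 9 called genes (left of the dashed line) and 6 others. For Pou3f1, AB032087, AW141855, Pfkfb1 and TC482824 the lower doses differed by -0.05 to 0.12; for AA848977, TC488065, Cxcl10 and Jund by 0.33 to 0.58.

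For AA848977, a tag from a lung library, the lower doses differed nearly as much as the upper ones. It measured 0.37, 0.38, 0.37 and 0.33 with TCDD 1 nM and -0.32, -0.29, -0.36 and -0.37 with TCDF 10 nM. The groups lay on opposite sides of 0 with almost no spread within each. The same held at the lower doses, with 0.21, 0.24, 0.27 and 0.29 against -0.22, -0.18, -0.44 and -0.45. Untreated cells, read in the TCDD session, measured 0.17, 0.30, 0.12 and 0.14, and PeCDF 2 nM, read in the TCDF session, -0.62, -0.51, -0.54 and -0.52. The sign of the ratio thus followed the session in all 6 of these groups. The difference was 0.69 +/- 0.09 at the upper doses (adjusted p = 0.045) and 0.58 at the lower ones (adjusted p = 0.0434), and the dose step difference was 0.12 (-0.15 to 0.39, adjusted p = 0.878). AI137762, a tag whose probe the files also tie to AA848977 and which was chosen after its values were seen, differed by 0.38 and 0.40.

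TC488065 also differed at both dose pairs. It measured 0.54, 0.62, 0.51 and 0.63 with TCDD 1 nM, -0.36, -0.37, -0.14 and -0.03 with TCDF 10 nM, and 0.75, 0.95, 0.60 and 0.68 in untreated cells. The ratio with TCDD was thus no higher than that of cells given neither compound nor solvent. The difference was 0.80 +/- 0.10 (adjusted p = 0.045; 0.47 to 0.94 across the alternative settings) at the upper and 0.41 at the lower doses. For TC476741 and BC079265 the lower doses differed by 0.27 and -0.18, in the direction of the upper doses.

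Among genes that were not called, some had the same feature. Cxcl10, a chemokine that draws T cells, differed by 0.65 at the upper and 0.49 at the lower doses. Jund, a subunit of the AP-1 transcription factor, differed by 0.46 and 0.33, and its other probe by -0.07 at the upper doses. Tfrc, the transferrin receptor, differed by -0.67 and -0.31, and Apcs, a pentraxin of the acute phase, by -0.51 and -0.36. Hif1a, the oxygen-regulated transcription factor, chosen after its values were seen, differed by 0.77 and 0.31 (another probe of it by 0.36 at the upper doses), and with the animal as a block the first passed (adjusted p = 0.0256). For these genes a session shift and a response to the lower doses cannot be told apart.

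Against DMSO, TCDD 0.01 nM called 164 genes (0.471%) and TCDF 0.1 nM 0 by limma (0%, with 2682 at an unadjusted p under 0.05). Over all genes, the lower doses gave 54 calls (0.155%; 9 higher and 45 lower with TCDD) and the dose step difference 18 (0.0517%; 16 higher and 2 lower). Most of these calls were of another kind than those at the upper doses. On the TCDD 0.01 nM arrays the orientations of an animal differed by more than 0.5 in 44 of the 54 and in 15 of the 18, against 0 of the 10 on the TCDD 1 nM arrays, and the mean log2 signal was under 7 in 44 of the 54. Krt76, Gpr141, Kif5a and Or7g35, genes of keratin, an orphan receptor, a neuronal motor and an olfactory receptor, had dose step differences of 0.60, 0.49, 0.46 and 0.45 but upper dose differences of 0.10, -0.01, 0.03 and 0.06. AW141855 and Pfkfb1 were dose step calls without such a gap. With the animal as a block in the fit no gene was called in the dose step difference by limma (0, with 2532 at an unadjusted p under 0.05), AW141855 and Pfkfb1 included.

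The AHR battery is the set of drug-metabolising and regulatory genes that AHR induces directly. Of 12 members measured, 11 were called higher with TCDD against DMSO (against 4.74% of all genes) and 7 with TCDF (against 1.03%). The median log2 ratios were 1.40 and 0.99. None was called in the difference (against 0.0287% of all genes). The median difference was 0.16 over the list and 0.00 over all genes. On 4 of the 11 members with all 8 values the TCDD arrays lay wholly above the TCDF arrays (against 5.24% of all genes) and on 0 wholly below (against 5.88%). The members divided between Cyp1b1, Aldh3a1, Tiparp and Nfe2l2, with differences of 0.69 to 1.54, and the rest, with differences of -0.35 to 0.23. The rest and the list median include Cyp1a1, at 0.23, and Cyp1a2. Both were saturated in the treated channel, so a larger difference could be hidden.

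Cyp1b1 measured 4.18, 3.88, 3.64 and 4.02 with TCDD and 2.45, 3.02, 2.01 and 2.08 with TCDF. All 8 arrays were far above 0, and the groups did not overlap. The difference of 1.54 +/- 0.26 (0.96 to 2.12, or 2.91-fold) missed the threshold after adjustment (adjusted p = 0.0906), and another probe gave 1.21. Its DMSO signal was low on the TCDF arrays, at 42 to 90 above local background, so the fold is uncertain. With the animal as a block the adjusted p was 0.0417. The lower doses differed by -0.31.

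Aldh3a1, an aldehyde dehydrogenase, had higher ratios in rat B with both exposures. It measured 1.79, 1.80, 2.61 and 2.95 with TCDD and 0.53, 0.53, 1.73 and 1.75 with TCDF (1.15 +/- 0.52, adjusted p = 0.427; lower doses 0.15). Tiparp, a mono-ADP-ribosyltransferase that restrains AHR, differed in one rat more than in the other: it measured 2.34, 2.55, 1.16 and 1.28 with TCDD and 0.75, 0.93, 0.80 and 0.91 with TCDF. Its difference was 1.61 in rat A and 0.37 in rat B (adjusted p = 0.322; lower doses 0.19). Nfe2l2, which encodes the oxidant-response factor NRF2, measured 1.17, 1.37, 1.15 and 1.32 with TCDD and 0.48, 0.66, 0.44 and 0.65 with TCDF (0.69 +/- 0.13, adjusted p = 0.105; lower doses 0.29).

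The classical CYP1A genes could not be ranked. Cyp1a1 was saturated in the treated channel on all 8 arrays, and the TCDD value of rat A is missing because a marked spot was dropped, so its difference of 0.23 gives no fold. Cyp1a2 was saturated on 3 of 4 arrays of each group (0.14, -0.19 to 0.46). An unsaturated probe of it had mean ratios of 2.29 with TCDD and 2.50 with TCDF. For Nqo1, a quinone reductase, the interval of the difference ran from -0.47 to 0.68 (0.10; rat A 0.61, rat B -0.40). For Ugt1a6, a phenol glucuronosyltransferase, it ran from -0.90 to 0.21 (-0.35; rat A 0.15, rat B -0.84). Ugdh, which makes the cofactor of glucuronidation, differed by -0.02, Gsta2 by 0.16, Slc7a5 by 0.16 and Cyp2s1 by 0.07. Of the 24 targets of NRF2, 0 were called in the difference (against 0.0287% of all genes). Their median difference was -0.01, with 12 above 0 and 12 below. The TCDD arrays of 4 lay wholly above (against 5.24% of all genes) and of 0 wholly below (against 5.88%). Among the 4, Gclm differed by 0.34, Slc7a11 by 0.26 and Txnrd1 by 0.27 (its other probes by 0.10 and 0.33). Gsr differed by -0.59, Ephx1 by -0.55, Gclc by -0.43 and Gsta3 by -0.27, with arrays that overlapped. Gsr, Ephx1 and Gclc were chosen after their values were seen.

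Of the ligands of the EGF receptor family, Ereg and Areg were among the genes with the largest differences. None of the ligands was called (against 0.0287% of all genes). The other ligands stood nearer to 0: Tgfa differed by 0.10, Hbegf by 0.03, Egf by -0.07 and Btc by -0.27, and these were listed after their values were seen. Ereg encodes epiregulin, and it measured 3.07, 2.99, 2.33 and 2.77 with TCDD against 1.03, 1.21, 0.33 and 0.28 with TCDF. The groups were far apart, and in each group the arrays of rat A lay above those of rat B. The difference was 2.08 +/- 0.30 (1.41 to 2.74), the largest of the genes tested (adjusted p = 0.0674, or 0.0417 with the animal as a block). The DMSO signal of Ereg was low, at 11 to 49 above local background on the TCDF arrays, so no fold is given. Areg measured 2.61, 2.65, 2.22 and 2.39 with TCDD and 1.26, 1.5, 0.51 and 0.58 with TCDF (1.5 +/- 0.36, 2.84-fold, adjusted p = 0.181). The DMSO signal of Areg was 31 to 90 on the TCDF arrays, so its fold is uncertain. Nrg1, neuregulin 1, differed by 0.51 +/- 0.14, and its other probe by 0.07. At the lower doses Ereg, Areg and Nrg1 differed by -0.13, -0.15 and 0.26. Against DMSO, Ereg, Areg and Nrg1 were called with TCDD (adjusted p = 3.9e-05, 0.000232 and 0.000566) and not with TCDF (0.123, 0.0809 and 0.143). The list of 19 genes of this pathway had a median difference of 0.02, with 3 wholly above (against 5.24% of all genes) and 1 wholly below (against 5.88%).

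**Figure D4:**
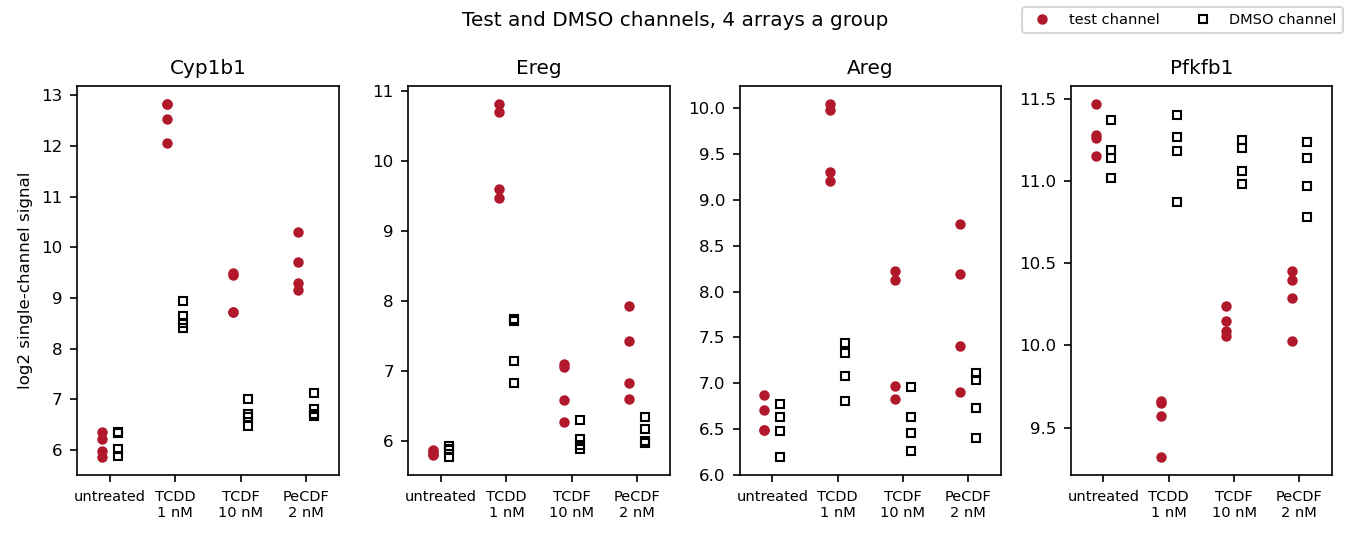
Log2 signal of the test RNA (red) and of the DMSO RNA (open squares) on the 4 arrays of untreated cells, TCDD 1 nM, TCDF 10 nM and PeCDF 2 nM for Cyp1b1, Ereg, Areg and Pfkfb1. For Cyp1b1 and Ereg the DMSO signal on the TCDD arrays lies above that on the other arrays; for Pfkfb1 the DMSO signals of the 4 groups overlap.

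For these genes part of the comparison lay in the DMSO channel. The DMSO signal of Cyp1b1, after subtraction of the local background, was 188 to 544 on the TCDD 1 nM arrays (median 321.5). It was 42 to 90 on the TCDF 10 nM arrays (median 79) and 11 to 40 on untreated arrays (median 28.5), all against DMSO RNA of the same 2 animals. The DMSO signal of Ereg was 61 to 198, 11 to 49 and 7 to 19 in the same order. This was so with the DMSO RNA in red and in green. On the log2 scale the test channel of Cyp1b1 was 3.46 higher on the TCDD than on the TCDF arrays and its DMSO channel 1.92 higher, and for Ereg these values were 3.40 and 1.32. The ratio differences of 1.54 and 2.08 are therefore smaller than those of the treated channels alone. For Pfkfb1 the DMSO signal was 1501 to 3227 on the TCDD and 1526 to 3677 on the TCDF arrays. The feature was not confined to Cyp1b1 and Ereg. All 5 genes with a TCDD log2 ratio over 2 had a DMSO channel above that of untreated arrays. For Aldh3a1, Areg and AB032087 it was 1.01, 0.65 and 0.25 higher. Of the 29 genes with a ratio of 1 to 2, 26 were above 0 (median 0.11). Of the 34740 genes with a ratio of -1 to 1, 19437 were above 0 (median 0.01). The source of the DMSO channel signal was not tested.

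Immediate-early and NF-kB genes were more often above than below with TCDD. Of 25 immediate-early and MAPK feedback genes the TCDD arrays of 9 lay wholly above (against 5.24% of all genes) and of 1 wholly below (against 5.88%), with a median difference of 0.13. Klf4, a zinc-finger transcription factor, measured 0.91, 0.89, 0.71 and 0.69 with TCDD and 0.16, 0.23, 0.18 and 0.23 with TCDF (0.60 +/- 0.10, adjusted p = 0.0871), and the lower doses differed by 0.12. Dusp5 and Dusp1, phosphatases of MAP kinases, went opposite ways: Dusp5 differed by 0.35 and Dusp1 by -0.78, with adjusted p of 0.0994 and 0.105 and lower dose differences of 0.09 and -0.22. Map3k8, a kinase upstream of ERK chosen after its values were seen, differed by 1.00 +/- 0.29, and by 0.15 at the lower doses.

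Of 28 chemokines and NF-kB feedback genes 6 lay wholly above (against 5.24% of all genes) and 0 wholly below (against 5.88%), and the median was 0.11. Cxcl3, a neutrophil chemokine, measured 1.21, 1.21, 1.08 and 1.13 with TCDD and 0.54, 0.62, 0.08 and 0.05 with TCDF (0.83 +/- 0.21, adjusted p = 0.205), and the lower doses differed by 0.25. Another probe of it that did not pass the filter on dim probes gave -0.08. Nfkb1, a subunit of NF-kB, differed by 0.57 +/- 0.14 with the probe used and by 0.17 with another, and Birc3, an inhibitor of apoptosis, by 0.36 +/- 0.09. Against DMSO 12 genes of this list were called higher with TCDD (against 4.74% of all genes) and 1 with TCDF (against 1.03%).

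Of 25 genes of glucose and fructose metabolism, 17 were called lower with TCDD against DMSO (against 5.96% of all genes) and 13 with TCDF (against 1.95% of all genes). In the difference, 2 were called lower, Pfkfb1 among them (against 0.00861% of all genes), and 0 higher (against 0.0201%). The TCDD arrays of 11 lay wholly below (against 5.88% of all genes) and of 3 wholly above (against 5.24%). The median difference was -0.26. Fbp1, the gluconeogenic fructose bisphosphatase, measured -1.11, -0.93, -1.02 and -0.94 with TCDD and -0.71, -0.58, -0.53 and -0.40 with TCDF (-0.45 +/- 0.07, adjusted p = 0.0792), and the lower doses differed by 0.08. Its other probe gave -0.66. Ppp1r3b, which targets a phosphatase to glycogen, differed by -0.39 +/- 0.07, though another probe gave -0.08. Gbe1, the glycogen branching enzyme, chosen after its values were seen, measured -0.29, -0.30, -1.66 and -1.77 with TCDD and -0.05, -0.02, 0.36 and 0.37 with TCDF. Its low TCDD values were those of rat B, and its lower doses differed by 0.30.

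None of the lipid genes was called in the difference (against 0.0287% of all genes). Of 29 targets of PPARA and fatty acid oxidation genes, 21 were called lower with TCDD against DMSO (against 5.96% of all genes) and 8 with TCDF (against 1.95%), 10 lay wholly below (against 5.88%) and 0 above (against 5.24%) in the difference, and the median was -0.26. Angptl4, an inhibitor of lipoprotein lipase and a PPARA target, measured -1.38, -1.37, -1.54 and -1.56 with TCDD and -0.80, -0.73, -0.77 and -0.74 with TCDF (-0.70 +/- 0.12, adjusted p = 0.0912), with a lower dose interval of -0.28 to 0.27. Etfdh, of mitochondrial electron transfer, differed by -0.33, Hadhb, of the trifunctional protein, by -0.57, and Fgf21, a fasting hormone, by -0.41.

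Of 22 genes of fatty acid synthesis 10 lay wholly below (against 5.88% of all genes) and 0 above (against 5.24%), with a median of -0.17. Acly, which makes cytosolic acetyl-CoA, measured -2.11, -2.01, -1.68 and -1.70 with TCDD and -1.46, -1.33, -1.03 and -1.04 with TCDF. The offset was -0.66 in each rat (+/- 0.20, adjusted p = 0.264), and the lower doses differed by 0.12. Srebf1, the lipogenic transcription factor, differed by -0.34, Scd, the stearoyl-CoA desaturase, by -0.29 and Lpin1, a phosphatidate phosphatase, by -0.35.

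Conjugating enzymes had the lowest median of the 28 lists. Over 18 sulfo- and glucuronosyltransferases the median difference was -0.41, 8 of the 17 with all values lay wholly below (against 5.88% of all genes) and 0 above (against 5.24%). Against DMSO 12 were called lower with TCDD (against 5.96% of all genes) and 3 with TCDF (against 1.95%). Ugt2a3 measured -1.09, -1.04, -1.76 and -1.81 with TCDD and -0.58, -0.56, -0.35 and -0.34 with TCDF (-0.97 +/- 0.27, adjusted p = 0.233), and the lower doses differed by -0.07. Sult1a1, a phenol sulfotransferase, differed by -0.43 and Ugt2a1 by -0.35. Ugt2b15 differed by -0.87 with the probe used and by 0.15 with another, and genes of this family share sequence, so its value is uncertain.

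Genes of the xenobiotic receptors CAR and PXR and of bile acid handling showed smaller offsets. Over 17 CAR and PXR targets the median was -0.22, with 3 wholly above (against 5.24% of all genes) and 4 wholly below (against 5.88%). Cyp2b3 measured -0.86, -0.92, -0.78 and -0.88 with TCDD and -0.52, -0.54, -0.44 and -0.49 with TCDF (-0.36 +/- 0.07, adjusted p = 0.0981), and the lower doses differed by -0.11. Nr1i2, which encodes PXR itself, differed by -0.28, and the drug efflux pump Abcb1a by 0.34. Over 26 bile acid and transport genes the median was -0.11, with 9 wholly below (against 5.88% of all genes) and 1 above (against 5.24%). Among these Nr1h4, the bile acid receptor FXR, differed by -0.69 (rat A -0.31, rat B -1.07), the bile salt pump Abcb11 by -0.44 and the phospholipid pump Abcb4 by -0.21 in each rat. Constitutive cytochromes had a median of -0.08 over 22, with Cyp2c22 at -0.76 (rat A -0.34, rat B -1.18), Cyp4a3 at -0.48 and Cyp4f4 at -0.46. For the 14 glutathione transferases the median was -0.11.

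All 31 genes of the hepatocyte identity list were measured and their median difference was -0.19, with 8 wholly below (against 5.88% of all genes) and 1 above (against 5.24%). Alb and Tf gave the same ratios, -0.18 (rat A) and -0.03 (rat B) with TCDD and 0.02 and -0.03 with TCDF. Apoc3, Ambp and Rbp4 held the same TCDF ratios. Ratios shared in this way do not measure each gene on its own, and they enter the list median. The median of -0.19 is the difference of Apoc3 and is not read further. Foxa1, a liver transcription factor, measured -1.0, -0.93, -0.80 and -0.90 with TCDD and -0.57, -0.66, -0.63 and -0.54 with TCDF (-0.31 +/- 0.06, adjusted p = 0.119), and the lower doses differed by -0.16 (-0.30 to -0.02). Tdo2, a tryptophan dioxygenase, differed by -0.47. Arg1, the arginase of the urea cycle, differed by -0.67 with arrays that overlapped. Its DMSO channel was saturated on 2 arrays of each group, and with TCDF rat B measured -0.61 in red and 0.44 in green. F9, coagulation factor IX, measured -0.35, -0.28, -1.21 and -1.22 with TCDD and 0.06, 0.10, 0.08 and 0.16 with TCDF, and its lower doses differed by -0.04. Cdo1, a cysteine dioxygenase of liver chosen after its values were seen, measured -1.17, -1.26, -1.74 and -1.83 with TCDD and -0.47, -0.44, -0.21 and -0.15 with TCDF (-1.18 +/- 0.22, adjusted p = 0.101), and the lower doses differed by -0.14.

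Markers of other liver cells gave medians near 0. Median differences were -0.03 over 19 Kupffer cell and leukocyte markers and 0.01 over 18 stellate cell and fibroblast markers. They were -0.02 over 13 endothelial markers and 0.01 over 15 cholangiocyte markers. None of these markers was called (against 0.0287% of all genes). Of the Kupffer cell and leukocyte markers 0 lay wholly above (against 5.24% of all genes) and 3 wholly below (against 5.88%). Single markers of this list ran from -0.39 to 0.14, with 6 above 0 and 13 below. Of the Kupffer markers Lyz2 differed by -0.35, with arrays that overlapped, and Vsig4 by -0.37, and at the lower doses by -0.26 and -0.32. C1qa, Clec4f and Cd68 went the other way, by 0.14, 0.11 and 0.07, and were chosen after their values were seen. Fewer cells of a type and less RNA per cell cannot be told apart in these pooled dishes, and the part of these markers in the results above was not tested. Lists of the acute phase, unfolded protein response, cholesterol synthesis, p53, cell cycle, clock, retinoid, heme and iron and matrix genes and of the AHR complex had medians of -0.11 to 0.12 and no call. The share called over all genes was 0.0287%. In the acute phase list Orm1, Fgb, Fgg and A2m held the same ratios as Alb and Tf. Saa4, Hp, Hpx, Fga and Serpina3n held the same TCDF ratios as these genes. The acute phase median of -0.10 equals the difference of Orm1, Fgb, Fgg and A2m and is not read further.

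**Figure D5:**
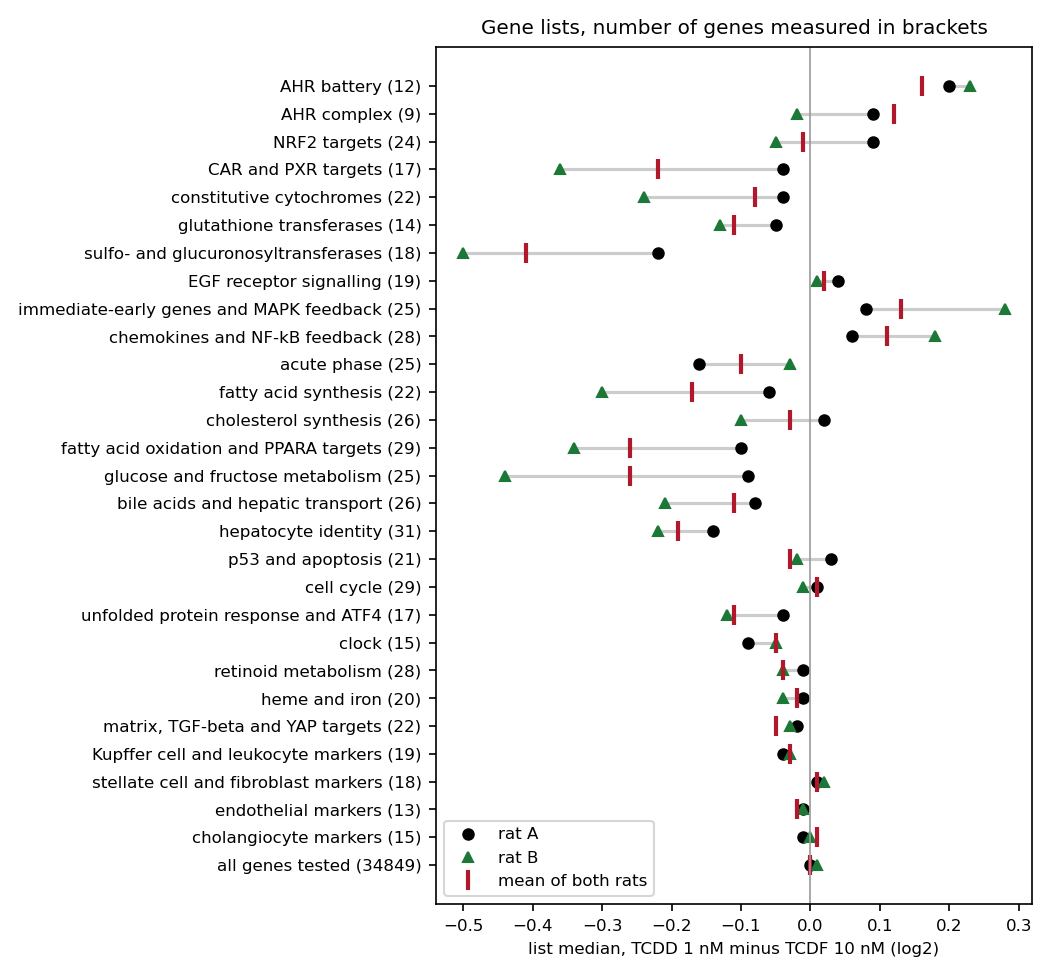
Median over each gene list of the difference TCDD 1 nM minus TCDF 10 nM (log2), for rat A (circles), rat B (triangles) and the mean of both rats (red bars), with the number of genes measured in brackets. In the lists of conjugating enzymes and of glucose, fructose and fatty acid metabolism rat B lies further below 0 than rat A.

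The offset of the metabolic lists was larger in rat B. In rat A and rat B the medians were -0.09 and -0.44 for glucose and fructose metabolism, -0.10 and -0.34 for fatty acid oxidation, -0.06 and -0.30 for fatty acid synthesis, -0.22 and -0.50 for conjugating enzymes and -0.04 and -0.36 for CAR and PXR targets. Both were positive for the AHR battery, at 0.20 and 0.23. Of the 6970 brightest genes, 3.03% had a difference under -0.3 in rat A and 21.3% in rat B. Past 1.5-fold there were 104 genes towards TCDD and 21 away from it in rat A, against 94 and 1230 in rat B, and 22 and 11 in both rats. With 1 animal behind each of these values, a difference between the rats was not tested.

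PeCDF 2 nM, a pentachlorinated furan read in the session of TCDF, gives the same genes a comparison without the session. Against DMSO, PeCDF 2 nM called 1565 genes (4.49%). PeCDF 2 nM minus TCDF 10 nM called 0 genes by limma (0%, with 912 at an unadjusted p under 0.05). Among the 10 genes called between TCDD and TCDF its difference was 0.88 for AB032087, 0.25 for Pfkfb1, 0.18 for Pou3f1, -0.04 for AW141855 and -0.22 for AA848977. TCDD 1 nM minus PeCDF 2 nM, which spans the sessions, called 281 genes (0.807%). There Pou3f1 differed by 1.08 (adjusted p = 0.0121), Pfkfb1 by -0.89 (0.00122), AW141855 by 0.88 (0.00122), AA848977 by 0.91 (0.00647) and AB032087 by 0.48 (0.221). These comparisons share the TCDD or the TCDF arrays with the main one, so their values are given side by side only.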

How the data were processed

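RNA of hepatocytes was measured on 28 Agilent 2-colour arrays in 7 groups of 4 arrays (2 animals, 2 dye orientations each). The authors scanned the arrays and extracted them with Agilent Feature Extraction 9.1, per the submitters' processing notes; the deposited files hold spot intensity in each channel and a log10 ratio of red over green, per the file headers. The deposited series table holds the same log10 ratio turned to test over DMSO (largest difference 4.995e-06).

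From the deposited intensity values, log2 ratios were computed with limma 3.58.1 in R 4.3.3. Mean signals were background-corrected by normexp (offset 50) and loess-normalised within each array, and control spots and 1067 marked spots (0.0921%) were left out. A local background over 1.5 times its channel's median was first set to that median (29 spot channels, 5 of them on the array of TCDF 10 nM, rat A, treated RNA in green), because with backgrounds as read normexp compressed that array's ratios. This repair was chosen after the data were seen. Ratios were turned to test over DMSO and the orientations of an animal averaged, which gave 14 values per gene, of which 853 in all were missing. A probe was kept if well above background in the test channel on all 4 arrays of a group or in at least 14 of 28 DMSO channels (37824 of 41012 probes), and 1 probe per gene name was used (34849 names, 15191 with a symbol). Symbols came from accessions and identifiers matched to RefSeq (18507 probes).

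All 7 group means were fitted together in limma (7 residual and 3.13 prior degrees of freedom), and p-values, two-sided, were Benjamini-Hochberg adjusted over all genes with a threshold of 0.05. All p-values in the text come from this fit unless another is named. With 2 animals per group, the number of animals limits the precision. The replicate letters name the same animals in all groups, per the labels; deviations of rat A from the group means correlated between groups at -0.39 to 0.58 (median 0.13, over 0.1 in 11 of 21 pairs of groups). Named genes were those with a symbol that were called with non-overlapping arrays (at most 15 each way; 3 genes met this), the AHR battery, up to 4 per other gene list with the smallest p, and the 5 largest dose step differences each way; the 7 called genes without a symbol fall outside this rule and were named after their values were seen, as were others where the text says so. The comparison and the 28 lists were chosen with earlier results of these data known. One called gene is counted in the totals but not reported here. The computations were tested on simulated data.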

Additional observations from a re-analysis of the deposited data

Results flagged for a closer look

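For 5 of 72 named genes every TCDD 1 nM array and every TCDF 10 nM array lay on opposite sides of 0. AA848977 (difference 0.69) and TC488065 (0.80) passed the test of the difference. Cxcl10 (0.65), Jund (0.46) and F9 (-0.86) did not, so for them opposite signs are given without a difference shown by the test. For AA848977, TC488065, Cxcl10 and Jund the lower doses also differed, by 0.58, 0.41, 0.49 and 0.33.

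The rise from the lower to the upper dose differed between the compounds for AW141855 (0.89) and Pfkfb1 (-0.67), by limma's test of the dose step difference (adjusted p = 0.0334 and 0.0431). With the animal as a block neither passed. The AW141855 probe met the filter on the TCDD 1 nM arrays, where it was high, and its p-values are read with that limit.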

How the results depend on the processing

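The 9 genes named here that were called between TCDD 1 nM and TCDF 10 nM kept their direction under all alternatives run, but were not called under all: Pou3f1 was called in 17 of 20, AW141855 in 17 of 19, Pfkfb1 in 14, AB032087 and TC488065 in 11, AA848977 and TC476741 in 10, TC482824 in 9 and BC079265 in 6 of 20. The count of all calls (10) moved. It was 2 with Agilent's log ratio, 2 with the deposited series table, 5 without background correction, 3 with the brightest unsaturated probe, 1 with ratios scaled to one spread, 4 with a variance trend and robust moderation, 0 with the compared groups alone, 2529 in an array-level fit with a dye term (which counts orientations of an animal as separate) and 19 with the replicate block. Among alternatives chosen after seeing the data it was 22 with local backgrounds as read, 3 on arrays with treated RNA in red and 19 in green. Leaving out animals gave 3 to 1589; a lone animal was assumed to vary like the other groups.

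For the dose step difference (18 genes) the counts were 0 with Agilent's log ratio, 0 with the series table, 28 without a filter, 0 with a stricter filter, 2 with scaled ratios, 0 with the replicate block, 0 with the compared groups alone, 296 in the array-level fit, 38 in red and 0 in green, and 0 to 0 without an animal; unadjusted p under 0.05 were 1924, 1924, 2096, 2532, 1625, 2339, 2869 and 2539 for the counts of 0 in that order, by limma. For the lower doses (54) they were 21, 21, 109 without background correction, 82 without a filter, 18 with a stricter one, 0 with the compared groups alone (2035 unadjusted), 801 at the array level, 94 in red and 0 in green (2760 unadjusted), and 1 to 173 without an animal. PeCDF 2 nM minus TCDF 10 nM (0) gave 18 at the array level and 0 to 8 without an animal.

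Of 1433 values of 72 named genes 1241 kept direction and side of the threshold, 74 lost a call, 103 gained one and 15 reversed. Cyp1a2 reversed to -0.03 with every probe, -0.21 with the unsaturated probe, -0.08 scaled and -0.06 in red, and ran from -0.03 to 0.30 without an animal. Nqo1 reversed to -0.07 scaled and ran from -0.40 to 0.61 without an animal (-0.37 without TCDD rat A). Ugt1a6 ran from -0.84 to 0.15 (0.11 without TCDD rat B). Ugdh reversed to 0.00 without background correction and 0.00 in red, and ran from -0.22 to 0.19 (0.18 without TCDD rat B). Gsta2 ran from -0.09 to 0.41. The cause was not tested. Saturation limits Cyp1a1, Cyp1a2 and Arg1, and low signal limits AW141855, Pou3f1 and Ereg. Low DMSO signal also limits the folds of Cyp1b1 and Areg. Ratios shared between genes limit Alb, Tf, Apoc3, Ambp, Rbp4 and the medians of the hepatocyte identity and acute phase lists.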
